A study of Drosophila melanogaster with 3 samples.

Results

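Heat shock and chaperone genes were taken as the protein-coding genes whose symbol starts with Hsp, Hsc70, CCT and a digit, or DnaJ, which gave 35 of the 13945 protein-coding genes on the 6 chromosome arms analysed. Their chromatin was sampled in whole Drosophila melanogaster embryos, males and females together, collected at 6 to 16 h. The transgenic line carried Sox100B, an HMG-box transcription factor of the Sox family, with GFP joined to its C terminus. Chromatin immunoprecipitation was followed by sequencing in 3 biological replicates of this 1 group, with chromatin sheared to 200 to 800 bp. No heat or other treatment is named in the labels, and no untagged or input list was analysed here. The antibody field names Sox100B while the free-text line of each sample speaks of an input, and the samples were taken as immunoprecipitates. All cell types of the embryo were mixed, so a region cannot be placed in a tissue.

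Chaperones help proteins reach and keep their folded state. Small heat shock proteins hold unfolded proteins without using ATP. Hsp70 proteins bind and release them in ATP-driven cycles that DnaJ proteins stimulate, Hsp90 acts late on kinases and receptors, and the ring-shaped chaperonins Hsp60 and CCT enclose their substrates in mitochondria and cytosol. In flies the heat-inducible genes are switched on by heat shock factor, which binds inverted repeats of the unit GAA, while the Hsc70 genes, the CCT genes and part of Hsp83 expression are active without heat.

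The authors deposited 1 list of 30000 regions per replicate, 1 of 30000 from the pooled reads and 1 of 5683 that passed their threshold on the irreproducible discovery rate (IDR), which keeps regions that rank alike in replicates. A region was counted at a gene when its summit lay in the gene body or up to 1000 bp upstream, and ranks run from 1 for the highest signal within a list. The 5683 strongest regions of each replicate are called its strong regions. Read depth is unknown, and the signals of different lists are on scales that are not stated, so ranks are compared and signals are only given. Between 8146 and 10358 regions of a replicate list had q under 0.05, and the labels describe these lists as peaks together with background.

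The sequences around 4 of the IDR summits, all outside protein-coding exons, show what the marked chromatin looks like, 151 bases each, centred on the summit and written 5′ to 3′ on the strand of the gene, from release 6 of the genome (dm6). Capitals mark a heat shock element of 2 units, GAANNTTC or TTCNNGAA. Only those at Hsp26 and Hsc70-4 hold one, and the Hsp26 sequence also holds 3 matches to GAGAG and 1 to the Sox core ACAAAG. GC content ran from 26.5% in the Hsp83 intron to 35.1% at Hsc70-4.

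Hsp27, chr3L:9383811-9383961, plus strand: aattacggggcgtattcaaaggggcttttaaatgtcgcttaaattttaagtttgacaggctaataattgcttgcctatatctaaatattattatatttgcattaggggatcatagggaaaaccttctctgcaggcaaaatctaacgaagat
Hsp83 intron, chr3L:3194179-3194329, plus strand: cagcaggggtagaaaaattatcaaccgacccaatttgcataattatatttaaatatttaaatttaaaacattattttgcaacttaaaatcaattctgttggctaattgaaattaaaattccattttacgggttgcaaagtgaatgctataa
Hsp26, chr3L:9377466-9377616, minus strand: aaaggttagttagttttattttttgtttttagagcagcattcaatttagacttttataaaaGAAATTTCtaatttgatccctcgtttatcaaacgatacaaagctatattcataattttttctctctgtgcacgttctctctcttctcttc
Hsc70-4, chr3R:15242414-15242564, plus strand: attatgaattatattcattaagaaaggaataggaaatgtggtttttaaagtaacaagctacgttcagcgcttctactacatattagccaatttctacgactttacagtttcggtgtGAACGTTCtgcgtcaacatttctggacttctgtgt

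Hsp27, Hsp83 and Hsc70-5 carried the strongest IDR regions, and most chaperone genes carried none. Of the 35 genes, 9 or 25.7% had an IDR region, against 22.3% of all protein-coding genes. Among the 200 genes nearest in length to each member, 6.46 members would have had one. The 9 genes shared 9 distinct regions, because Hsp83 had 2 and the neighbours Hsp67Bc and Hsp22 had 1 between them. The median number of IDR regions was 0 per member and 0 per protein-coding gene. The share of members is close to the background, and it is given as a count with no test.

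Families differed in their counts. Among the small heat shock genes 4 of 6 had an IDR region, where 0.72 would follow from genes of like length, but these 4 rest on 3 regions in 1 cluster of neighbouring genes. The Hsp70 and Hsc70 family had 3 of 13 against 2.60, all of them Hsc70 genes. The only Hsp90 gene among the members, Hsp83, was 1 of 1 against 0.295, and its 2 regions stood against 0.38 regions expected from like length. The CCT family had 1 of 8 against 1.47, the DnaJ genes 0 of 3 against 0.445 and the Hsp60 genes 0 of 4 against 0.935. Families this small give counts only, and differences between them were not tested.

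**Figure D1:**
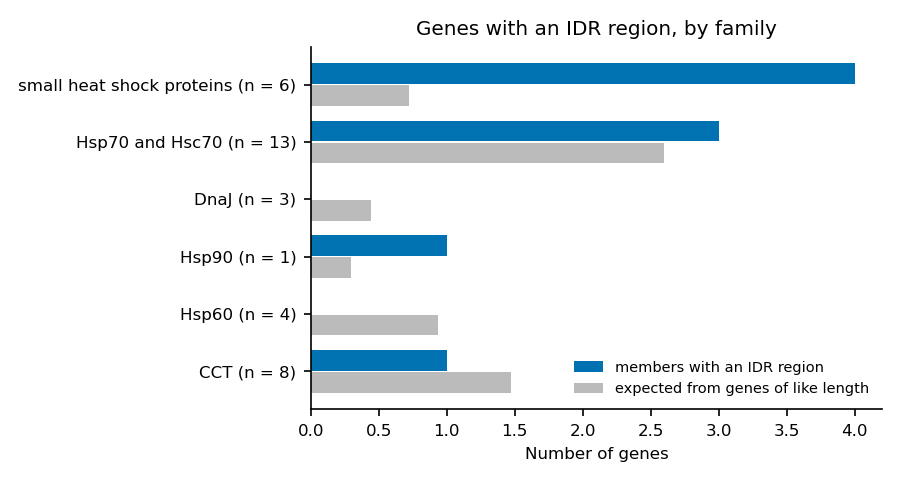
Bars give, for each family, the number of genes with an IDR region (blue) and the number expected from the 200 genes nearest in length to each member (grey), both as counts of genes on an axis from 0. The small heat shock genes had 4 against 0.72, the Hsp70 and Hsc70 family 3 against 2.60, and the DnaJ and Hsp60 families 0.

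Small heat shock genes lay together within one stretch of 3L, and regions marked their starts unevenly. Hsp27, a nuclear small heat shock protein, had the strongest region of any member, at 3L 9383680–9384119 with its summit 177 bp upstream of the start. Its signal was 1472 and its IDR rank 191, and it ranked 198, 218 and 157 in replicates 1, 2 and 3. All 3 replicates thus placed it among their strongest 218 regions. Hsp26 had a region at 3L 9377309–9377772, with its summit 114 bp upstream and a signal of 412. Its IDR rank was 1894, and the replicate ranks were 1907, 1652 and 2498.

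Hsp67Bc and Hsp22 had a single region between them. At 3L 9373341–9373626, it had a signal of 466, IDR rank 1587 and replicate ranks 1564, 1548 and 2003. Hsp22 encodes a mitochondrial small heat shock protein. The summit lay in a 5′ UTR, 566 bp downstream of the outermost annotated start of Hsp22 and 500 bp from its nearest annotated start. It also lay 1000 bp upstream of the start of Hsp67Bc, which is the limit of the window. In replicate 3 the summit lay 49 bp further from Hsp67Bc and was counted for Hsp22 alone. The same summit also lay in the window of CG4456, which RefSeq lists under the older name Hsp67Bb and which the symbol rule leaves out.

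Hsp23 and Hsp67Ba, in the same cluster, had no region in any of the 5 lists. The Hsp26 summit lay 261 bp outside the window of Hsp67Ba. The Hsp27 summit lay 1121 bp beyond the window of Hsp23. A further IDR region left of Hsp67Bc, of rank 4385 and signal 215, had its summit 53 bp from the start of Fdx1, a gene for a ferredoxin, and was counted for no member.

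**Figure D2:**
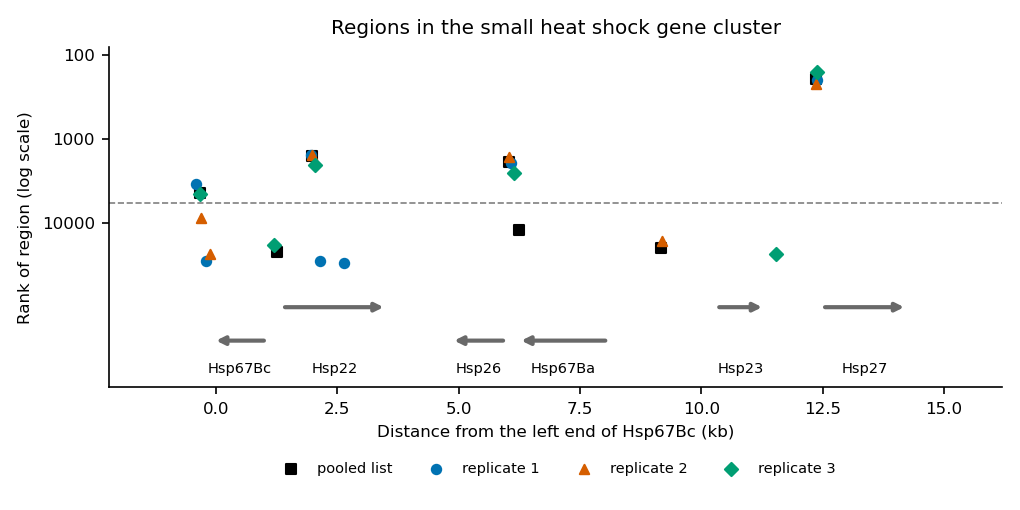
Each point is a region near the small heat shock genes, with its summit in kb from the left end of Hsp67Bc and its rank within its list on a log axis (1 is strongest, at the top); arrows are genes in their direction of transcription, and the dashed line is rank 5683. In all 4 lists shown regions stand above the line at Hsp22, Hsp26 and Hsp27, and none does at Hsp23 or Hsp67Ba.

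Hsp83, the cytosolic Hsp90 chaperone, was marked at its start and in its first kilobases. The first region spanned 3L 3192857–3193296, with its summit in a 5′ UTR. The summit lay 140 bp downstream of the outermost annotated start of Hsp83 and 107 bp from its nearest annotated start. This region had a signal of 1168, IDR rank 343 and replicate ranks 435, 364 and 253. The second spanned 3L 3194076–3194434, with its summit in an intron, 1285 bp from the outermost start and 1038 bp from the nearest one. It had a signal of 1059, IDR rank 408 and replicate ranks 370, 375 and 559. The order of the pair changed between replicates: replicate 1 ranked the intron region higher, and replicates 2 and 3 the one at the start. The region at the start also lay in the window of the neighbouring gene CG14965.

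Among the Hsp70 relatives, regions lay at 3 Hsc70 genes, which encode the constitutive forms, and at none of the heat-inducible copies. Hsc70-5, the mitochondrial form, had a region at 2R 14256043–14256471, with its summit 40 bp upstream of the start, a signal of 894 and IDR rank 552. Its replicate ranks were 654, 510 and 545. Hsc70-4, the main cytosolic form, had a weak region at 3R 15242257–15242720, 198 bp upstream, with a signal of 205 and IDR rank 4647. Replicates 2 and 3 ranked it 5040 and 4864, but replicate 1 ranked it 10310, with a −log10 q of 1.02, so there it was neither a strong region nor under a q of 0.05.

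Hsc70-3, the Hsp70 of the endoplasmic reticulum (BiP), had a region on X, 312 bp upstream, with a signal of 199 and IDR rank 4795. It ranked 6036 in replicate 1, below the strong regions, and 5078 and 4616 in replicates 2 and 3. Weaker summits were scattered over this gene. With the main region included, the pooled list held 5 summits in its window and the replicates 7, 6 and 3. No other member had as many in the pooled list. Hsc70-1 had no summit except 1 of rank 20257 in replicate 3, and Hsc70-2 had none in any list. Hsp110, a nucleotide exchange factor for Hsp70 proteins, had 1 summit in each replicate, of ranks 6242, 24629 and 14926, and none in the pooled list.

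Of the chaperonin genes, CCT5 alone had an IDR region. It encodes 1 subunit of the cytosolic ring, and its region at 2R 12174341–12174804 lay 229 bp upstream of the start, with a signal of 337, IDR rank 2486 and replicate ranks 2665, 3188 and 2320. The window of Oda, the gene for ornithine decarboxylase antizyme, held the same summit. CCT7 had a pooled region of rank 8138 at 124 bp upstream, below the IDR list, and replicate ranks of 9783, 14020 and 7446. CCT1 had no pooled summit and replicate regions below the strong ones, of rank 5916 in replicate 1, also in the window of tHMG1, and 9134 in replicate 3. CCT4, CCT8, CCT2 and CCT6 had no summit in any list. Neither did Hsp60B, Hsp60C and Hsp60D, which are relatives of the mitochondrial chaperonin gene Hsp60A.

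Of the 9 regions 7 lay in the stronger 2841 of the IDR list, and their median rank was 1587 against 2842 for all IDR regions. Those stronger regions marked 7 members, against 15.2% of all genes and 4.355 members expected from like length. Any IDR region marked 9 members, against 22.3% of all genes and 6.46 expected. Among all genes, too, most of those with an IDR region thus had a stronger one. The ranks are a description of a few regions. All but 2 of the regions were overlapped by strong regions in all 3 replicates, and the exceptions, at Hsc70-4 and Hsc70-3, in replicates 2 and 3. For all 9 the nearest annotated start was that of a member, and 8 summits lay within 1 kb of it. Windows of genes outside the rule held 5 of the 9 summits, those named above and those of CG8531 at Hsc70-5 and tefu, the fly ATM kinase gene, at Hsc70-4. Of the 4615 IDR regions that lay in any gene window, 21.9% lay in the windows of 2 or more genes. That share counts each region once. The 9 were reached through genes, which favours regions in several windows, so these shares are unlike.

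**Figure D3:**
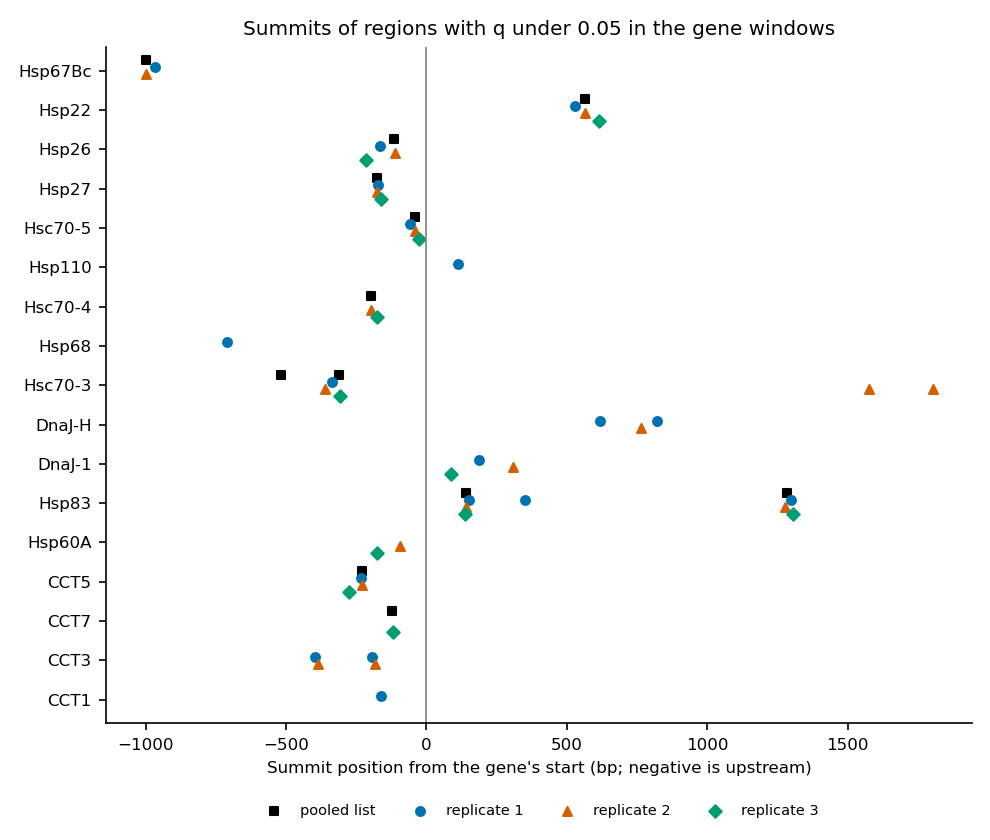
Each point is the summit of a region with q under 0.05 in the window of a member, placed by its distance in bp from the gene's start (negative is upstream), with black squares for the pooled list and coloured symbols for replicates 1 to 3. Summits of the lists lie close together at Hsp27 and Hsc70-5, and Hsp83 has a group near 140 and another near 1285 bp. DnaJ-H, DnaJ-1, CCT3 and Hsp60A have replicate points but no pooled point, and so do Hsp110, CCT1 and Hsp68 in replicate 1 alone.

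Single replicates marked more chaperone genes than the IDR list did. Strong regions marked 11, 12 and 10 members in replicates 1, 2 and 3, a mean of 11 ± 1 (SD, n = 3). The same rule called 23.8%, 24.3% and 25.3% of all genes, and genes of like length would give 7.14, 7.22 and 7.79 members. They formed 12, 13 and 11 distinct regions, or 12 ± 1. In 2 or 3 replicates 13 members had a strong region, where 23.7% of all genes did and 7.06 members would follow from genes of like length.

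There were 4 members with strong regions in at least 2 replicates and no summit at all in the pooled list of 30000, from which the IDR list is drawn. They were 4 of 35, while 2.19% of all genes were in this state, 305 in number, and genes of like length would give 0.890 members. Of the genes with strong regions in 2 or 3 replicates, these are 4 of 13 members and 9.23% of all genes. Across the genome 5.33%, 6.51% and 7.14% of the strong regions of replicates 1, 2 and 3 overlapped no pooled region, so such gaps were not confined to chaperone genes. Its cause was not tested. The pattern was noticed in the values and then counted.

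DnaJ-H, which encodes a DnaJ co-chaperone of Hsp70 proteins, was the strongest of these. Its region ranked 573 in replicate 1, with a signal of 237, and 477 in replicate 2, with a signal of 436. Replicate 3 had no summit in the window. The summits lay in an intron 822 and 764 bp downstream of the start, and both also fell in the window of Sirt1, a deacetylase gene. The nearest pooled summit was 10687 bp from that of replicate 1. The 151 bases around the replicate 2 summit had a GC content of 17.2%, on chr2L:13165233-13165383, minus strand, with no heat shock element of 2 units.

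DnaJ-H: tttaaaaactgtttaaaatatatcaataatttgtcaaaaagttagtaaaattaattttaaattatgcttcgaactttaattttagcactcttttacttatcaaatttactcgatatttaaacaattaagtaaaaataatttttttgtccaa

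DnaJ-1, the heat-inducible partner of Hsp70 (fly Hsp40), had a region in every replicate, of ranks 2662, 5805 and 4101, so that replicate 2 fell just short of its strong regions. The summits lay 189, 309 and 88 bp downstream of the start in the 5′ UTR, and the closest pooled summit lay 55592 bp from that of replicate 1. Those of replicates 1 and 3 also fell in the window of Usp47, a ubiquitin protease gene. CCT3 had strong regions of ranks 1829 and 1665 in replicates 1 and 2, at −395 and −387 bp from its start and also in the window of CG10324, and no summit in replicate 3. Hsp60A, the mitochondrial chaperonin, had none in replicate 1 and strong regions of ranks 3457 and 3032 in replicates 2 and 3, at −95 and −177 bp. Hsp68 had a strong region in replicate 1 alone, of rank 4932, in a window shared with SMC1. DnaJ-60 had no summit in any list.

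**Figure D4:**
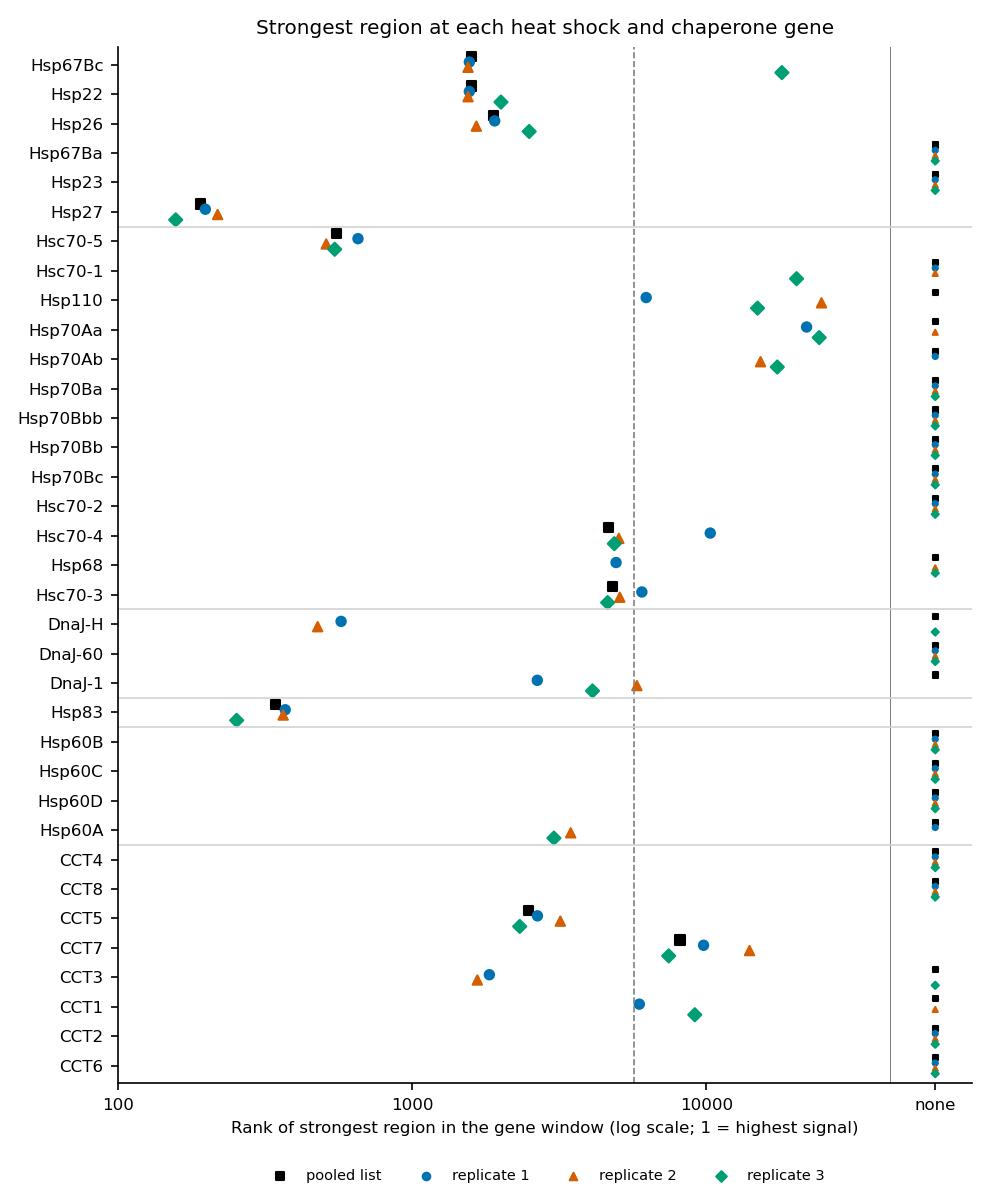
For each of the 35 genes, grouped by family with grey lines between, points give the rank of the strongest region in the window on a log axis, for the pooled list (black squares) and replicates 1 to 3 (coloured symbols); small symbols at "none" mean no region, and the dashed line is rank 5683. The 9 genes with an IDR region have black squares left of the line. DnaJ-H, DnaJ-1, Hsp60A and CCT3, and Hsp68 in replicate 1 alone, have coloured symbols there with the black square at "none".

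Counting every region, weak ones included, gave shares of members below those of all genes in the pooled list and near them in the replicate lists. The pooled list marked 10 members, the 9 above and CCT7, or 28.6%, against 41.8% of all genes and 12.6 members expected from like length. It held 19 distinct regions at members. The replicate lists marked 17, 16 and 17 members, where 47.4%, 48.7% and 49.8% of all genes were marked and 14.8, 15.8 and 15.9 members would follow from length. Distinct regions were 34, 28 and 22, or 28 ± 6 (SD, n = 3). No region of any list lay at 15 of the 35 members, against 38.3% of all genes and 14.6 members expected from like length.

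Heat shock elements were more frequent at these promoters than at promoters in general, and how they sat with IDR regions depended on the length of the window. In the 250 bases before to 50 after the outermost annotated start, 17 of 35 members held GAANNTTC or TTCNNGAA, and so did 15.9% of all 13945 promoters. Other annotated starts of a gene were not searched. Both forms read the same on either strand and can overlap. By family, the 17 included 11 of 13 Hsp70 and Hsc70 genes and 3 of 6 small heat shock genes. The CCT genes added 2 of 8 and the DnaJ genes 1 of 3, while the 4 Hsp60 genes and Hsp83 had 0. Among the 11 were the 6 Hsp70 copies, which are nearly identical to one another. Of these 17 members 4 had an IDR region, and of the 18 without a match 5 did, both near the 22.3% of all genes. The 17 include the 6 Hsp70 copies, whose windows are mostly repeated sequence, so that their lack of a region is uncertain. A split without the copies was not taken. With 500 bases before the start, 22 members and 27.3% of all promoters held a match. Of those 22 members 8 had an IDR region, and of the 13 without a match 1 did. The split thus turned with the window, and it was not tested. The form of 3 alternating units was found in 7 members, the 6 Hsp70 copies and Hsp68, and in 0.430% of all promoters. Those 7 genes had no IDR region, which is uncertain for the 6 Hsp70 copies. Within 100 bp of the summit, an element of 2 units lay at 3 of the 9 member regions and at 10.6% of all IDR regions. The 3 were those at Hsp26, Hsc70-4 and the start of Hsp83, whose promoter window of 250 bases held none. That window is set on the outermost start, 140 bp from the Hsp83 summit, while another annotated start lies 107 bp from it. The 0 for Hsp83 and the counts of 4 and 5 above thus apply to outermost starts. This share was not tested. A match is a string of letters and not a bound site.

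Upstream sequences of 4 heat-inducible genes without an IDR region are shown, each the 150 bases before the outermost annotated start, with elements in capitals as above. These windows are set on the start and the earlier ones on a summit, so they are unlike. All 4 hold an element, while the same windows of CCT3 and Hsp60A, also without an IDR region, hold none. The Hsp70Aa and Hsp70Ba sequences hold 1 form of 3 units each, and Hsp70Aa 6 and Hsp70Ba 5 matches to GAGAG.

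Hsp23, chr3L:9381732-9381881, plus strand: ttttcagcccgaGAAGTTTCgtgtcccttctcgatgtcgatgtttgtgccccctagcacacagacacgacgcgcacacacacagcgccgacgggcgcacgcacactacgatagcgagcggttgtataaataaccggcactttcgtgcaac
Hsp68, chr3R:24057311-24057460, minus strand: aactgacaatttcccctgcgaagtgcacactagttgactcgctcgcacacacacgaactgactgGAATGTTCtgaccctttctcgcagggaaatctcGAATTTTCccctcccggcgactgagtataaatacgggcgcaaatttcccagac
Hsp70Aa, chr3R:11956545-11956694, minus strand: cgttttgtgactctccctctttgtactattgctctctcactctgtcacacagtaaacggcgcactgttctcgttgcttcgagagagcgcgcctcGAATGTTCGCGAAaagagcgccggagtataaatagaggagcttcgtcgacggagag
Hsp70Ba, chr3R:12467777-12467926, minus strand: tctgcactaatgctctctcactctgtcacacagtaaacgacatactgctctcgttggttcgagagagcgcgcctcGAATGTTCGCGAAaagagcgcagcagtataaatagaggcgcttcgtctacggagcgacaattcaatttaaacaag

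The Hsp70 copies are nearly identical to one another, and this limits what their empty windows mean. Of the 50-base stretches in the windows of Hsp70Aa, Hsp70Ab, Hsp70Ba, Hsp70Bbb, Hsp70Bb and Hsp70Bc, 77.9% to 96.6% occurred more than once on the 6 arms, on either strand. How reads with several matches were treated is not given in the sources used here, so these 6 genes are uncertain. Hsp70Aa had weak summits in replicates 1 and 3, of ranks 21914 and 24191, Hsp70Ab in replicates 2 and 3, of ranks 15282 and 17424, and the other 4 copies had none. Among the other 29 members the share was 32.3% for Hsp60D, 27.7% for Hsp27, 13.7% for CCT2 and at most 0.122% elsewhere. Inside the IDR region of Hsp27 itself, 0 of 391 such stretches were repeated. The same count was 0 in each of the other 8 regions.

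Other patterns were counted in the same promoter window, on both strands. GAGAG was found in 15 members and 29.7% of all promoters, TATAAA in 24 members and 45.8%, and TATCGATA, which DREF, a factor of growth-related promoters, recognises, in 5 members and 9.36%. The Sox core ACAAAG or ACAATG was found in 8 of 35 members, or 22.9%, against 31.3% of all promoters. Within 100 bp of the summit it lay at 2 of the 9 member regions, at Hsp26 and in the 5′ UTR of Hsp22, and at 24.9% of all IDR regions. The members with an IDR region had a median promoter GC content of 35.7% (28.7% to 43.0%, n = 9) and those without one 41.7% (30.3% to 52.3%, n = 26). These 26 include the 6 nearly identical Hsp70 copies, at 44.7% to 45.3%, all above that median. The 26 values are thus not all separate, and a median without the copies was not taken. Over all genes the median was 38.0% both with and without an IDR region. No test was made between the members, which are not replicates.

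**Figure D5:**
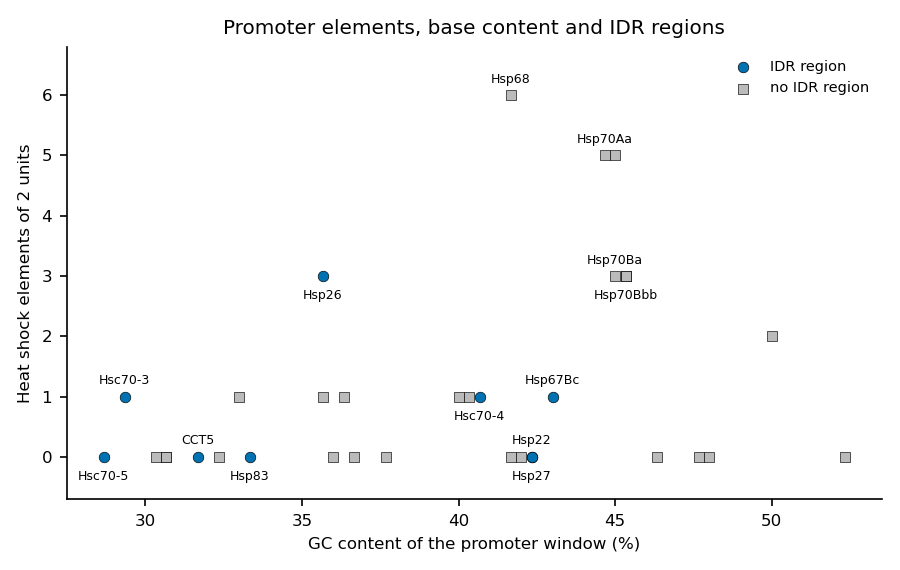
Each point is a member, placed by the GC content of its promoter window in percent and by the number of heat shock elements of 2 units in it, in blue with an IDR region and grey without. Hsp68 with 6, Hsp70Aa and Hsp70Ab with 5 and the other Hsp70 copies with 3 elements are grey, and Hsp26 with 3 is the only blue point above 1. Windows of the Hsp70 copies are mostly repeated sequence, so their lack of a region is uncertain.

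Partners of these chaperones outside the symbol rule were marked at a similar rate. Of 33 genes for heat shock factor, co-chaperones and other chaperones, 9 or 27.3% had an IDR region, against 22.3% of all genes and 7.34 expected from like length. Hsf, the heat shock factor gene itself, had none. Regions lay near the start of stv, a BAG-domain co-chaperone of Hsp70 (signal 1383, rank 231, at −555 bp from the start), and of mgr, a prefoldin subunit (signal 847, rank 599, at −100 bp). The myosin chaperone gene unc-45 had one at −107 bp (rank 2895), Stip1, which links Hsp70 to Hsp90, one at −150 bp (rank 4329), and CG1416, an activator of Hsp90, one at −324 bp (rank 5270).

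In 4 longer partner genes the strongest summit lay in an intron over 1 kb from the annotated start. These were mrj, a DnaJ protein gene (signal 1045, rank 417, 15265 bp from the start), nudC (signal 804, rank 666, 1999 bp), Tpr2 (signal 545, rank 1255, 9055 bp) and l(3)80Fg (signal 199, rank 4814, 1625 bp). The genes for the endoplasmic and mitochondrial Hsp90 proteins, Gp93 and Trap1, had no IDR region.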

How the data were processed

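Regions were measured by chromatin immunoprecipitation and sequencing in 3 samples of 1 group, so no groups were compared and no test was made. The deposited lists give, for each region on dm6, the peak caller's signal on a scale that is not stated, the −log10 q-value and the summit offset. Per the deposited file descriptions, each list of 30000 came from a replicate or from all 3 pooled, together with 1 further file of unstated content, and the IDR list was derived from those 4. No source used here names the aligner or the peak caller. Read depth is unknown.

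Genes and starts came from Ensembl release 115, and sequence from release 6 of the genome, whose arm lengths held every region end. Overlap meant 1 bp or more. A share expected from like length is the mean over the 200 non-member genes nearest in length. A region in the windows of several members counted once, and members' overlapping windows left 30 loci, of which 8 had an IDR region. Functions were tested on made-up regions. Every member with an IDR region is named, and so is every such partner gene. Members, families and lists were chosen with earlier results of these data known. Of 36 partner symbols, 33 were found, 2 of them under the annotation's current symbols Stip1 and CG1416. Python 3.11.15, NumPy 2.4.6, pandas 2.3.3 and matplotlib 3.10.9 were used. The sequence around the Hsc70-3 summit is not reported here.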

Additional observations from a re-analysis of the deposited data

How the results depend on the processing

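The count of 9 IDR regions at members ran from 6 to 10 over 11 other settings: 500 bp or 2 kb upstream, the nearest start, starts within 1 kb, any overlap, the stronger part of the IDR list, leaving out each replicate, and overlap with all 3 replicates. Leaving out 1 replicate, by asking for overlap with strong regions of the remaining ones, gave 7 to 9 regions and 7 to 9 genes; Hsc70-4 and Hsc70-3 were lost without replicate 2 or 3. The number of genes ran from 6 to 9, and was above the 3.70 to 7.38 expected from like length in each setting. The 6.46 expected genes became 6.70 with 50 neighbours in length, 7.30 with gene and intergenic length and 6.47 within X or autosomes. The mean of 11 genes with a strong region per replicate became 12.7 at q under 0.05 and 8 with 2841 regions. Pooled regions at members fell from 19 to 11 at q under 0.05, because weak regions are removed. Promoters with a heat shock element rose from 17 to 22 with 500 bases and were 7 when 3 units were required, by construction. With 500 bases the members with an IDR region turned from 4 of 17 with a match and 5 of 18 without to 8 of 22 and 1 of 13. Both groups with a match include the Hsp70 copies, whose lack of a region is uncertain. No paired analysis was possible because there is 1 group. Counts this small, with no read depth and no control list, limit every statement on these genes.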
